A study of Mus musculus with 9 samples.

Results

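The NRF2 oxidative stress genes described here are the transcription factor gene Nfe2l2 and 9 genes known as its targets: Cbr3, Nqo1, Srxn1, Txnrd1, Gclc, Gclm, Gsr, Hmox1 and G6pdx. The 10 genes were taken by name, with earlier results of these data known, so the shares of them given below are a description. All 10 were on the array and were among the 16807 genes tested. They were read by 17 probes, since 7 of the genes had 1 probe, Srxn1 and Gsr had 3 each and Nfe2l2 had 4. All 17 probes were well above background on all 9 arrays, and none of their spots was saturated, so no level of these 10 genes is a bound.

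The arrays measured liver RNA of male C57BL/6 mice aged 3 months, with 3 arrays for each of 3 groups. The untreated group is labelled wild type (WT) and received no vector. The AAV-GFP group, the vector control, was given green fluorescent protein in an adeno-associated virus (AAV), a small virus used to bring genes into liver. The AAV-hGRβ group was given the human glucocorticoid receptor's β isoform (hGRβ) in an AAV, an isoform that arises by splicing and lacks the hormone-binding end of the α isoform. The promoter that drives each insert, the dose and the time after treatment are not given in the sources used here. Whether replicates came from separate animals is not stated in the labels, and p-values therefore measure the spread between these samples, which may be technical. The labels number the untreated arrays 2, 3 and 4 and the arrays of the other groups 1, 2 and 3, and values below follow that order. The human insert was not analysed here.

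NRF2 is held in the cytoplasm by KEAP1, which hands it to a CUL3 ubiquitin ligase for degradation. Electrophiles and oxidants modify cysteines of KEAP1, after which newly made NRF2 escapes degradation, enters the nucleus, pairs with small MAF proteins and binds antioxidant response elements, for which BACH1 competes. In liver this programme is known for glutathione synthesis, quinone and carbonyl reduction, thioredoxin recycling, NADPH supply and heme breakdown. Much of the control of NRF2 acts on its protein, which RNA arrays do not measure.

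Each value is the log2 signal of a probe minus the 75th percentile of its array, so 0 lies at that percentile, and levels of different probes cannot be set against each other. The share of gene spots well above background ran from 54.0% to 82.0% per array. Scanning took place on 2 days, day 1 with 6 arrays and day 2 with 3, and each day held all groups. Slide nearly followed group. Of the 5 slides, 1 held an AAV-GFP and an AAV-hGRβ array (AAV-GFP replicate 3 and AAV-hGRβ replicate 1), and the other 4 held a single group each. Untreated arrays shared no slide with another group, so in both comparisons with untreated livers slide and group cannot be told apart. The labelled tissue was checked with 10 hepatocyte markers (among them albumin, transferrin and apolipoproteins). All 10 were well above background in every group. A gene was called where its adjusted p was under 0.05 by limma, with Benjamini-Hochberg adjustment over all 16807 genes.

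Of the 10 genes, Cbr3, Nqo1 and Srxn1 rose with AAV-hGRβ over AAV-GFP. Over all genes tested, 0.827% were called higher in this comparison. The median log2 difference of the 10 genes was 0.52, against 0.03 for all genes tested, and 9 of the 10 differences lay above 0, against 53.6% of all genes. Gclm was the member below 0. For 5 of the 10 genes the AAV-hGRβ and AAV-GFP arrays did not overlap, against 15.8% of all genes: Cbr3, Nqo1, Srxn1, Hmox1 and Txnrd1. With slide as a fixed block, where the difference rests on the slide that held both groups, Cbr3 (3.88), Nqo1 (0.93) and Srxn1 (1.79) each had a limma adjusted p of 0.432. The AAV-GFP and AAV-hGRβ arrays of that slide are also those of scan day 2. The scan day 2 differences given below are therefore these same values and no separate check. In bulk liver RNA, more cells of a type and more RNA per cell cannot be told apart.

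**Figure D1:**
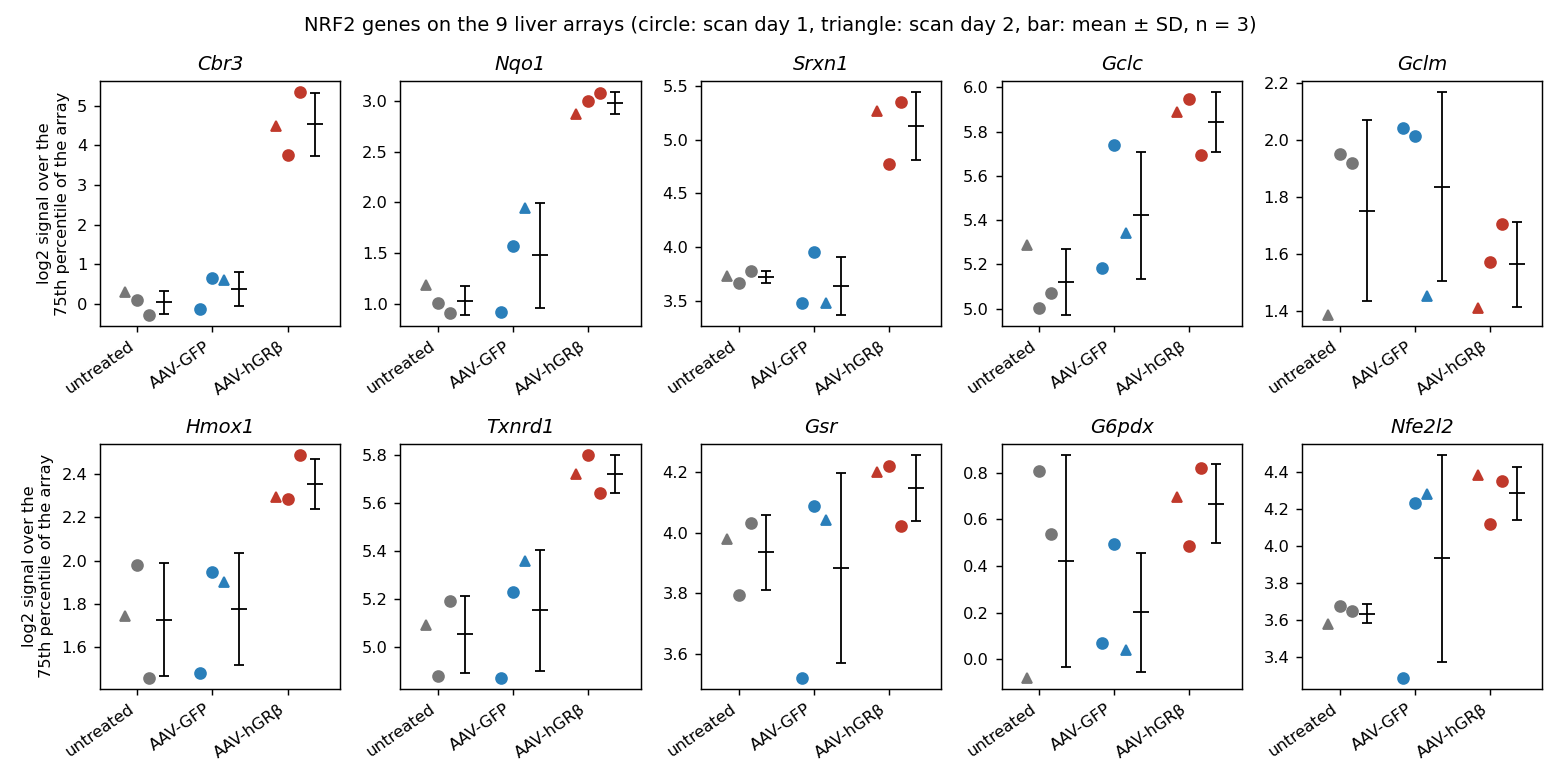
Log2 signal over the 75th percentile of the array for the 10 NRF2 genes on each of the 9 arrays, with its own vertical scale for each gene. Circles are arrays of scan day 1, triangles those of day 2, and black bars the mean and SD of 3 arrays. The AAV-hGRβ arrays of Cbr3, between 3.76 and 5.34, stand far above the other groups, while those of Gclm lie within the range of the others.

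Cbr3 encodes a carbonyl reductase that uses NADPH to reduce ketones and quinones. On the untreated arrays Cbr3 read 0.30, 0.11 and -0.27, on the AAV-GFP arrays -0.12, 0.65 and 0.62, and on the AAV-hGRβ arrays 4.49, 3.76 and 5.34. All 3 AAV-hGRβ arrays stood above the other 6, the lowest at 3.76 against 0.65 for the highest of the others. The group means were 0.05 ± 0.29, 0.39 ± 0.43 and 4.53 ± 0.79 (SD, n = 3). Cbr3 was 17.7-fold higher with AAV-hGRβ than with AAV-GFP, with a 95% interval from 9.54-fold to 32.8-fold (log2 difference 4.14, SE 0.39, limma adjusted p = 0.0041). Among all 16807 genes this rise ranked 6 by size. The difference was 4.28 on scan day 1 and 3.88 on scan day 2. Cbr3 passed in all 6 fits that left out 1 array of these groups, with adjusted p from 0.00349 to 0.0278.

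Nqo1 encodes a quinone reductase and is among the most used readouts of NRF2 activity. On the untreated arrays Nqo1 read 1.19, 1.01 and 0.91, on the AAV-GFP arrays 0.92, 1.57 and 1.94, and on the AAV-hGRβ arrays 2.87, 3.00 and 3.08. The AAV-hGRβ arrays lay close together and above all others, and the AAV-GFP arrays spread over a wide range, with replicate 1 at the untreated level. Nqo1 was 2.83-fold higher with AAV-hGRβ than with AAV-GFP (95% interval 1.91 to 4.21, log2 difference 1.50, SE 0.25, limma adjusted p = 0.0337). The difference was 1.79 on scan day 1 and 0.93 on scan day 2, where each group has 1 array. The call was lost in 5 of the 6 fits that left out 1 array, all but the one without AAV-GFP replicate 3, with adjusted p up to 0.157. It was also lost with slide as a random block (log2 difference 1.29, adjusted p = 0.129).

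Srxn1 encodes sulfiredoxin, which restores overoxidised peroxiredoxins. On the untreated arrays Srxn1 read 3.73, 3.66 and 3.78, on the AAV-GFP arrays 3.48, 3.95 and 3.48, and on the AAV-hGRβ arrays 5.27, 4.77 and 5.35. The 6 arrays without the receptor insert lay within a narrow band, and the AAV-hGRβ arrays stood apart from it. Srxn1 was 2.81-fold higher with AAV-hGRβ than with AAV-GFP (95% interval 2.02 to 3.91, log2 difference 1.49, SE 0.21, limma adjusted p = 0.0185). The difference was 1.34 on scan day 1 and 1.79 on scan day 2. The 3 Srxn1 probes gave log2 differences from 1.49 to 1.63. The call was lost without AAV-GFP replicate 1 (adjusted p = 0.0883), without AAV-hGRβ replicate 1 (0.0794) and without AAV-hGRβ replicate 3 (0.101).

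A pair of the Srxn1 probes overlap on chromosome 2 (build mm7, as the array files give it), so they are not separate measurements. Their 60-base sequences share 13 bases, in capitals below, where the last 30 bases of the first probe and the first 30 of the second are shown. The third Srxn1 probe, which stood for the gene, lies at chr2:151852040-151852099 and shares no base with them.
Srxn1 probe at chr2:151850306-151850365: ctttatgatagcactatATGAACTATGTAC
Srxn1 probe at chr2:151850353-151850412: ATGAACTATGTACtaggaagtaaaggaaaa

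Cbr3 and Nqo1 each rest on 1 probe, whose first 30 bases are shown because the whole result for the gene comes from it. The Cbr3 probe lies on chromosome 16 and the Nqo1 probe on chromosome 8, on the minus strand of build mm7.
Cbr3 probe at chr16:93751054-93751113: tctgcaaactcagtctgaacaattcgctgt
Nqo1 probe at chr8:105988683-105988742: taggtcatttatgcaatattcgccattttc

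The promoters of the 3 genes that rose, and of Gclm as the member that did not lie above 0, are shown to compare where the core of the antioxidant response element stands. The windows are the 250 bases before a gene's start in RefSeq (assembly GRCm38.p6), 5′ to 3′ on the strand of the gene, and 7 of the 10 genes matched an entry. Gclc, Gsr and Hmox1 have no entry. Matches to either form of the core, TGACNNNGC or TGAGNNNGC, on either strand are in capitals.
Cbr3 (chr16:93682969-93683218, plus strand): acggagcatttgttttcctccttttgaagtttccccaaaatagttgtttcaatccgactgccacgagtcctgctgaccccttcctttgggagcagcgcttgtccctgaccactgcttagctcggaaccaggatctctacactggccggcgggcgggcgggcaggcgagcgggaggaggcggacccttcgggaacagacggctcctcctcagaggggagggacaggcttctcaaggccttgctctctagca
Nqo1 (chr8:107403206-107403455, minus strand): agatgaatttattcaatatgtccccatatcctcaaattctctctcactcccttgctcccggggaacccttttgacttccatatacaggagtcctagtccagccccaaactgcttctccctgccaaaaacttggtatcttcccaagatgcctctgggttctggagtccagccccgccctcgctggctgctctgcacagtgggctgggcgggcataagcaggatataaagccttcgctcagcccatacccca
Srxn1 (chr2:152105274-152105523, plus strand): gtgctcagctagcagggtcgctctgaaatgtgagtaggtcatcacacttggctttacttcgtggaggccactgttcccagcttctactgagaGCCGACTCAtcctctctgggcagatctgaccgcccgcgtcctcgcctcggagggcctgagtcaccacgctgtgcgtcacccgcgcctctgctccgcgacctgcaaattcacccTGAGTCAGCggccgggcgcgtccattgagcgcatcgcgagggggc
Gclm (chr3:122245307-122245556, plus strand): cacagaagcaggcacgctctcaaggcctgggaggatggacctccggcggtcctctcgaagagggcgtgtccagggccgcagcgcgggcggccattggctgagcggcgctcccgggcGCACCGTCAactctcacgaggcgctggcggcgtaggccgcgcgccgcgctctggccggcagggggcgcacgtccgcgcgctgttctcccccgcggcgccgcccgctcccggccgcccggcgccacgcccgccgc

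Srxn1 held 2 matches, at 158 to 150 and at 45 to 37 bases before the start. The second contains an AP-1 site (TGACTCA on the opposite strand) at 45 to 39 bases, and another AP-1 match lies at 102 to 96 bases. Gclm held 1 match at 134 to 126 bases. Neither Cbr3 nor Nqo1 held a match in this window, which says only that these letters are not in these 250 bases. Nfe2l2 held 1 match at 240 to 232 bases, G6pdx 1 at 57 to 49 bases and Txnrd1 1 at 92 to 84 bases, in 1 of its 3 windows. Txnrd1 thus had more windows to match in than the others. Of the 9 windows of these genes 5 held a match, against 23.0% of 32851 promoter windows of the same length. TGACNNNGC alone was found in 10.2%, TGAGNNNGC in 14.4% and the AP-1 site in 4.46% of those windows. A match is a description of the letters, and no binding was measured.

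Nfe2l2 itself was not called. On the untreated arrays Nfe2l2 read 3.58, 3.68 and 3.65, on the AAV-GFP arrays 3.29, 4.23 and 4.28, and on the AAV-hGRβ arrays 4.38, 4.12 and 4.35. The AAV-hGRβ arrays overlapped AAV-GFP replicates 2 and 3, and AAV-GFP replicate 1 was the lowest of all 9 arrays. The difference from AAV-GFP was 0.35 (SE 0.26, 95% interval -0.24 to 0.94, limma adjusted p = 0.697), and 0.03 without AAV-GFP replicate 1. The 4 Nfe2l2 probes gave differences from 0.28 to 0.87.

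Regulators and partners of NRF2 gave 0 of 9 called by limma in either direction, and 0 of 9 had an unadjusted p under 0.05. Over all genes tested, 0.827% were called higher, 0.0773% were called lower and 11.7% had an unadjusted p under 0.05. With 9 genes, counts of 0 lie near those shares. The median difference from AAV-GFP was 0.16. Keap1, named here for its role as the NRF2 inhibitor, stood at 3.28 ± 0.30 with AAV-GFP and 3.44 ± 0.39 with AAV-hGRβ (SD, n = 3). The smallest p-values of this list were those of Nfe2l1 (-0.46, limma adjusted p = 0.428), a relative of NRF2 that controls proteasome genes, and of the small MAF genes Mafk (0.33) and Maff (0.49).

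Txnrd1 and Hmox1 had arrays that did not overlap between AAV-hGRβ and AAV-GFP but did not pass the test. Txnrd1 encodes cytosolic thioredoxin reductase, which keeps thioredoxin reduced at the cost of NADPH. Txnrd1 read 5.09, 4.88 and 5.19 on the untreated arrays, 4.87, 5.23 and 5.36 on the AAV-GFP arrays, and 5.72, 5.80 and 5.64 on the AAV-hGRβ arrays. The lowest AAV-hGRβ array exceeded the highest AAV-GFP array by less than the range of the AAV-GFP group. The difference was 0.57 (SE 0.18, 95% interval 0.16 to 0.98), with an unadjusted p of 0.012 and a limma adjusted p of 0.249. Within scan days it was 0.67 and 0.36.

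Hmox1 encodes heme oxygenase 1, which breaks heme down to biliverdin, iron and carbon monoxide and is abundant in macrophages that clear red cells. Hmox1 read 1.74, 1.98 and 1.46 on the untreated arrays, 1.48, 1.95 and 1.90 on the AAV-GFP arrays, and 2.29, 2.29 and 2.49 on the AAV-hGRβ arrays. All 3 AAV-hGRβ arrays lay above the other 6. The difference from AAV-GFP was 0.58 (SE 0.20, 95% interval 0.13 to 1.04), with an unadjusted p of 0.0182 and a limma adjusted p of 0.291. Within scan days it was 0.68 and 0.39.

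None of the glutathione genes among the members passed the test. Gclc and Gclm encode the catalytic and the modifier subunit of glutamate-cysteine ligase, the rate-limiting enzyme of glutathione synthesis. Gclc read 5.29, 5.0 and 5.07 on the untreated arrays, 5.19, 5.74 and 5.34 on the AAV-GFP arrays, and 5.89, 5.95 and 5.69 on the AAV-hGRβ arrays. AAV-GFP replicate 2 lay within the AAV-hGRβ range. The difference from AAV-GFP was 0.42 (95% interval -0.01 to 0.86, limma adjusted p = 0.442).

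Gclm read 1.39, 1.95 and 1.92 on the untreated arrays, 2.04, 2.01 and 1.45 on the AAV-GFP arrays, and 1.41, 1.57 and 1.71 on the AAV-hGRβ arrays. The groups overlapped, and on scan day 2 the 3 arrays lay close to each other at the low end. The difference from AAV-GFP was -0.27 (95% interval -0.80 to 0.25, limma adjusted p = 0.744). The interval leaves out a rise of the size seen for Nqo1 or Srxn1 at this spread between arrays. The Gclm probe spans 2636 bases of the genome for its 60 bases (chromosome 3, build mm7), so its positions hold a gap.

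Gsr, the glutathione reductase gene, had a difference of 0.26 (95% interval -0.17 to 0.70, limma adjusted p = 0.689), and its 3 probes gave 0.26 to 0.40. A pair of those probes share 39 of their 60 bases. G6pdx, the X-linked gene of glucose-6-phosphate dehydrogenase that starts the pentose phosphate route to NADPH, had a difference of 0.47 (95% interval -0.11 to 1.04, limma adjusted p = 0.543). The AAV-hGRβ arrays of G6pdx, at 0.49 to 0.82, overlapped the AAV-GFP arrays at 0.04 to 0.50, and untreated arrays ran from -0.08 to 0.81. For both genes the groups overlapped.

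**Figure D2:**
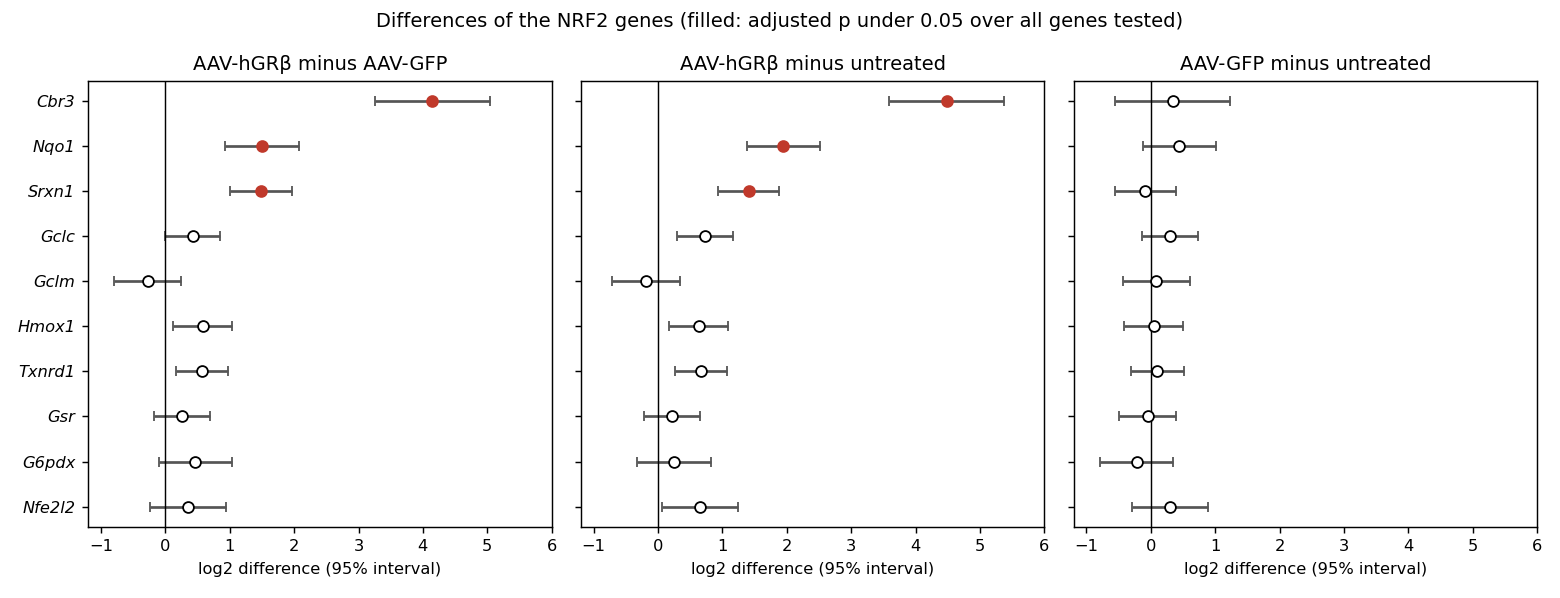
Log2 differences of the 10 NRF2 genes in the 3 comparisons, as points with 95% intervals from limma. Filled points passed an adjusted p under 0.05, which Cbr3, Nqo1 and Srxn1 did in both comparisons that hold the AAV-hGRβ arrays.

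None of these genes passed the test between the vector control and untreated liver. In AAV-GFP compared with untreated livers, 0 of the 10 genes were called higher or lower by limma and 0 had an unadjusted p under 0.05. Over all genes tested 0.0% were called higher, 1638 had an unadjusted p under 0.05, and with array weights 7417 were called in either direction. The groups overlapped for all 10 genes, while 14.8% of all genes had groups that did not overlap. The median difference of the 10 genes was 0.09, against 0.04 for all genes. The differences ran from -0.22 for G6pdx to 0.44 for Nqo1. The interval of Nqo1, from -0.13 to 1.01, leaves room for a rise of up to 2.02-fold, and with array weights Nqo1, Gclc and Nfe2l2 were called higher (adjusted p = 0.0121, 0.00705 and 0.0304). The weighted fit gave AAV-GFP replicate 2 a weight of 6.2, against 0.53 for replicate 1 and 0.37 for replicate 3. The AAV-GFP side of its calls therefore rests mostly on replicate 2. AAV-GFP replicate 1 was the lowest array of its group for 8 of the 10 genes. Over all genes tested that array's median deviation from the group mean was -0.07.

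Compared with untreated livers, the AAV-hGRβ livers gave the same 3 genes called higher, against 2.49% of all genes. This comparison shares the AAV-hGRβ arrays with the one against AAV-GFP, so it is no separate evidence, and slide cannot be told apart from group in it. Cbr3 was 22.3-fold higher (limma adjusted p = 0.00158), Nqo1 3.86-fold (0.00781) and Srxn1 2.65-fold (0.0133). Srxn1 lost the call without AAV-hGRβ replicate 3, untreated replicate 3 or untreated replicate 4, with adjusted p up to 0.0753. Gclc had a difference of 0.72 (adjusted p = 0.074), Txnrd1 0.67 (0.0772), Nfe2l2 0.65 (0.168) and Hmox1 0.63 (0.111), and none of these passed. Without untreated replicate 2, 4 of the 10 genes were called, but calls over all genes also went up, from 545 to 1936 in either direction. For 7 of the 10 genes the groups did not overlap, against 29.3% of all genes, and the median difference was 0.66 against 0.10 for all genes. Gclm lay at -0.19, below 0 here as well.

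The other genes of the pathway were read from a list of 49 genes by role, of which 46 were tested. Slc7a11, Aldh3a1 and Ugt1a6a were not tested. With AAV-hGRβ against AAV-GFP, 2 of the 46 were called higher and 0 lower, 12 had an unadjusted p under 0.05, and 35 of the 46 differences lay above 0. For all genes tested, 0.827% were called higher, 11.7% had an unadjusted p under 0.05 by limma and 53.6% lay above 0. Those shares are also the ones to set beside the counts of the lists that follow. The median of the 46 was 0.28, against 0.52 for the 10 genes and 0.03 for all genes.

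Both called genes encode alpha-class glutathione transferases, which conjugate glutathione to electrophiles. Gsta2 read 3.19, 3.24 and 3.67 on the untreated arrays, 3.03, 4.19 and 2.54 on the AAV-GFP arrays, and 5.61, 5.37 and 5.92 on the AAV-hGRβ arrays, a log2 difference of 2.38 (SE 0.39, limma adjusted p = 0.03). Gsta1 rose by 1.66 (SE 0.29, limma adjusted p = 0.0403). All AAV-hGRβ arrays lay above all others for both genes. Gsta1 and Gsta2 are near-identical copies, and a probe may read both, so they are uncertain as separate results. Each lost its call in 5 of the 6 fits that left out 1 array, keeping it without AAV-GFP replicate 2, with adjusted p up to 0.199 for Gsta1 and 0.149 for Gsta2. Gsta1 was also lost with slide as a random block (adjusted p = 0.0546).

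Of 12 glutathione genes tested, the 2 above rose and the median was 0.48. Gstm4, a mu-class transferase, had 0.65 (limma adjusted p = 0.305). Among 7 genes of quinone, carbonyl and aldehyde detoxification 0 were called and 4 had an unadjusted p under 0.05, with a median of 0.47. Cbr1, the neighbouring carbonyl reductase gene and close relative of Cbr3, had 0.80 (limma adjusted p = 0.18), Ugdh, which makes UDP-glucuronic acid, 0.79 (0.163) and Ptgr1, an alkenal reductase, 0.79 (0.234). Cbr1 was called higher against untreated livers, by 1.31 (limma adjusted p = 0.0215), and there lost the call in 3 of the 6 fits that left out 1 array.

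The remaining groups gave no calls. Export, heme and iron genes gave 0 of 10 called and 3 with an unadjusted p under 0.05, with a median of 0.28. Blvrb, a biliverdin reductase, had 0.69 (limma adjusted p = 0.358), Osgin1, an oxidative stress-induced growth inhibitor, 1.02 (0.388) and Entpd5, an endoplasmic reticulum nucleotidase, 0.41 (0.372). Thioredoxin and peroxiredoxin genes gave 0 of 3, with 0 at an unadjusted p under 0.05 and values of 0.32 for Txn1, 0.09 for Prdx1 and -0.02 for Prdx6. Genes of NADPH supply gave 0 of 5, with 0 at an unadjusted p under 0.05 and a median of 0.06. They included Idh1 (-0.30), Pgd (0.34) and Me1 (-0.26).

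**Figure D3:**
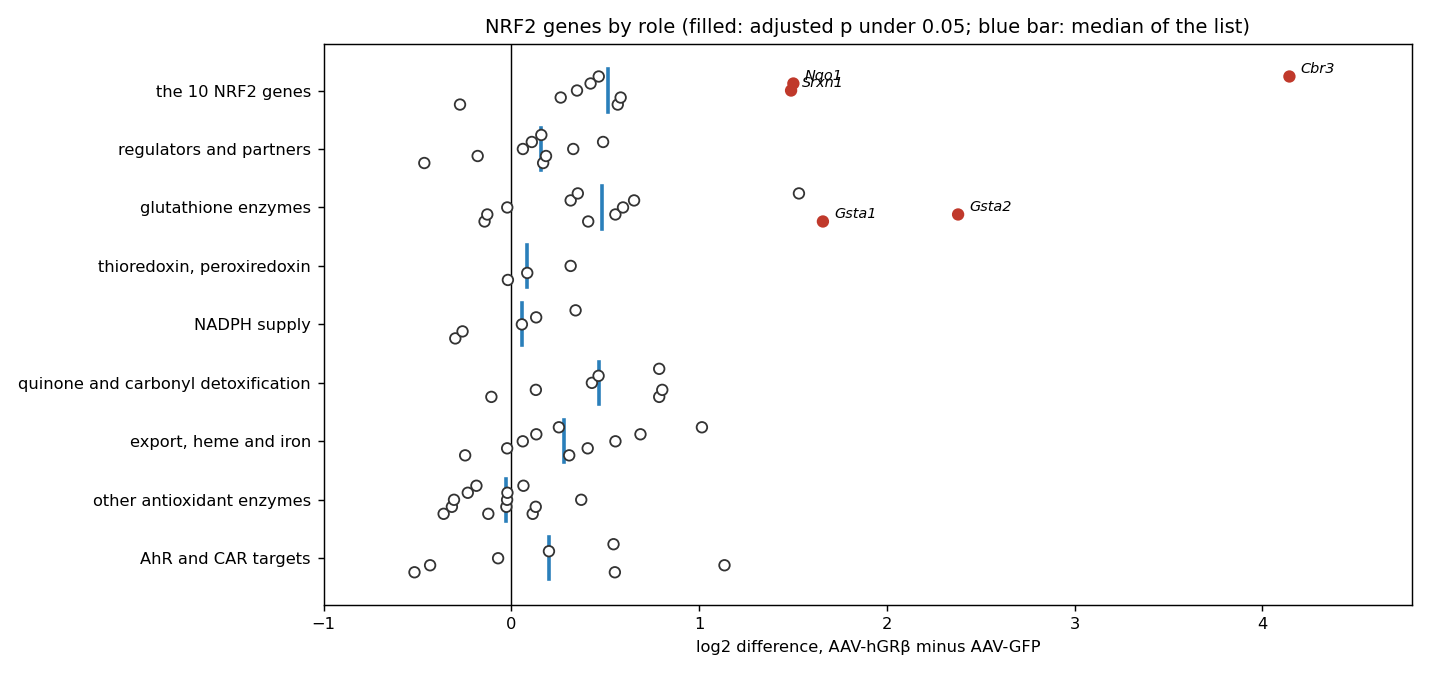
Log2 differences between AAV-hGRβ and AAV-GFP livers for the 10 NRF2 genes and for the other genes by role, with 1 point a gene and a blue bar at the median of each list. Filled points passed an adjusted p under 0.05. Of the lists other than the 10 genes, that of glutathione enzymes held the 2 called genes, Gsta1 and Gsta2.

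Antioxidant enzymes outside the usual NRF2 targets gave 0 of 13 called by limma and 0 with an unadjusted p under 0.05, with a median of -0.03 and 4 of 13 above 0. The smallest p-values were those of Msra, a methionine sulfoxide reductase (-0.32), Txn2, mitochondrial thioredoxin (-0.30), and Txnrd2, the mitochondrial thioredoxin reductase (-0.36). Targets of the aryl hydrocarbon receptor (AhR) and of the constitutive androstane receptor (CAR), xenobiotic receptors that share targets with NRF2, gave 0 of 7 called and 1 with an unadjusted p under 0.05. Cyp2c37, a cytochrome P450, had -0.52 (limma adjusted p = 0.26) and Cyp2c55, another P450, 0.55 (0.565). Ahrr, the AhR repressor, had 1.14 (0.491), but its probe was well above background on 1 of 3 AAV-GFP arrays and 1 of 3 untreated arrays. The difference between these lists and the NRF2 genes was not tested.

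Markers of other liver cells moved in the same comparison. Of 14 T and NK cell markers 4 were called higher (Cd8a, Gzma, Gzmb and Nkg7), and 10 had an unadjusted p under 0.05. All 14 lay above 0, but the T cell markers Cd3e (0.03) and Cd8b1 (0.01) hardly moved. Cd8a, Klrk1, Ncr1 and Prf1 were kept only because every AAV-hGRβ array had them well above background, so their rise is no support. The summed linear signal of the 14 was 2.91 to 3.33 times the 75th percentile with AAV-GFP and 6.15 to 13.9 times with AAV-hGRβ. Cd8a, the coreceptor of cytotoxic T cells, was not well above background on any untreated or AAV-GFP array, nor was Klrk1 on any AAV-GFP array, so the sum with AAV-GFP includes signal not above background. Of 12 Kupffer cell and macrophage markers 1 was called higher, Mpeg1, and 4 had an unadjusted p under 0.05. All 12 lay above 0, but Csf1r (0.06) hardly moved. Their sum was 109 to 194 with AAV-GFP and 265 to 378 with AAV-hGRβ. The 9 neutrophil and monocyte markers tested gave 0 called and 4 with an unadjusted p under 0.05. Among the markers, 8 of 9 lay above 0 with a median of 1.09, with a sum of 63.8 to 199 with AAV-GFP and 103 to 215 with AAV-hGRβ. These include Camp (1.57), which was kept only because every AAV-hGRβ array had it well above background, so its rise is no support. The 10 hepatocyte markers gave 0 called and 4 with an unadjusted p under 0.05. All 10 lay below 0, with sums of 3886 to 5280 with AAV-GFP and 3229 to 4139 with AAV-hGRβ. Each of these sums is led by the brightest probes of its list, and levels of different probes cannot be set against each other. B cell, endothelial, stellate, cholangiocyte and erythroid markers gave 0 called of 4, 7, 8, 5 and 3 tested, with 1, 1, 2, 0 and 0 at an unadjusted p under 0.05, and medians of 0.60, -0.22, -0.10, 0.34 and -0.32. Their part in the rise of Cbr3, Nqo1, Srxn1, Gsta1 and Gsta2 was not tested.

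The genes with a pattern most like Cbr3 over the 9 arrays, among 12005 genes outside the 10 and well above background on all arrays, were Uhrf1, Oas1a, Ifi44 and Oas1f, each with a Pearson correlation of 0.99. Uhrf1 encodes a protein that maintains DNA methylation, Oas1a and Oas1f are interferon-induced oligoadenylate synthetases and Ifi44 is another interferon-induced gene. Those most like Nqo1 were Mlkl, an effector of necroptosis, the kinetochore gene Cenpp, and the interferon-induced genes Ifi205 and Ifih1, each at 0.99. The 9 points share 3 groups and 2 scan days, so these correlations follow the step between groups and are a description. In AAV-hGRβ against AAV-GFP, Ifi44 had a difference of 4.24 (limma adjusted p = 0.00305), close in size to Cbr3, and Mlkl had 1.47 (0.0114), close in size to Nqo1.

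The calls depend on how the arrays are set to a common scale. Scaling to the array median in place of the 75th percentile moved the median of all genes from 0.03 to -0.33 in AAV-hGRβ against AAV-GFP. Under it Nqo1 at 1.14 (adjusted p = 0.196) and Srxn1 at 1.13 (adjusted p = 0.212) were no longer called, and Gsr stood at -0.10 and Nfe2l2 at -0.01. Cbr3 was 3.78 (adjusted p = 1.08e-05). That scaling also moved the split of called genes from 139 higher and 13 lower to 81 higher and 18 lower.

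**Figure D4:**
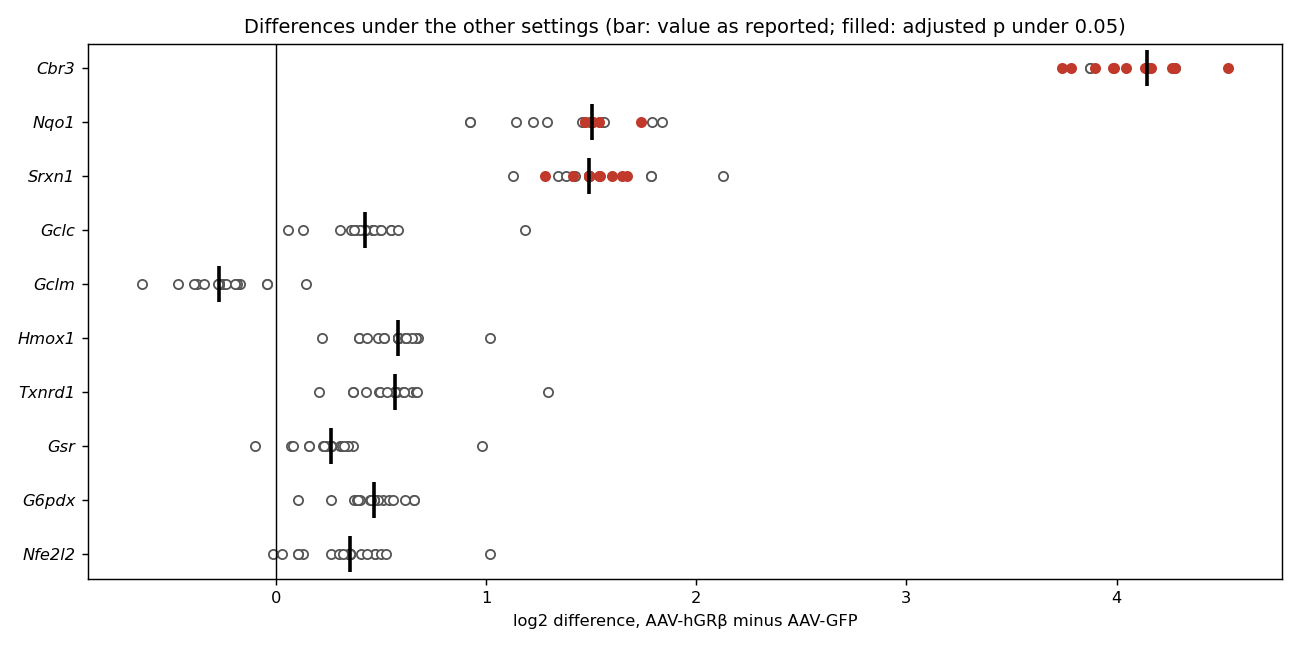
Log2 differences between AAV-hGRβ and AAV-GFP livers for the 10 NRF2 genes under each of 22 other settings, as points, beside the value as reported, as a bar. Filled points passed an adjusted p under 0.05, and open points did not or had no test. Cbr3 ran from 3.74 to 4.53, Nqo1 from 0.93 to 1.84 and Srxn1 from 1.13 to 2.13.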

How the data were processed

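Liver RNA of 9 samples was measured on single-colour Agilent arrays, and groups were taken from the labels. RNA was extracted with a DNase treatment and 500 ng per array were labelled with Cy3, per the labels' protocols. The deposited array files hold processed spot intensity on a linear scale, with background removed by the scanner software and no scaling between arrays, per the file headers. The submitters' processing notes name Agilent Feature Extraction 9.5. The deposited value table held the same intensities, with a largest difference of 0, linear and not centred.

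Control spots and spots with outlier flags were left out, spots of a probe were averaged as log2 values, and the 75th percentile of each array was subtracted. A probe was kept where every array of 1 or more groups had it well above background (24290 of 41174 probes, median array intensity 37.7 to 79.0). Each gene was represented by its brightest kept probe over all arrays. Probes were named through a RefSeq table of GRCm38.p6 (accession for 22951, symbol for 6659, older symbol for 3109), and 8455 kept the file's name. The number of arrays limits the precision.

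Differences were tested with lmFit and eBayes of limma 3.58.1 (R 4.3.3), two-sided, in a single fit of all 9 arrays. Benjamini-Hochberg adjustment was made within each comparison. The procedure was also run on simulated data with independent noise. Those data held no slide, scan day or array quality differences, so that run says nothing about such effects here. Every adjusted p is from limma. The named genes are all 10 NRF2 genes, genes of the other NRF2, regulator, antioxidant, AhR and CAR lists past the threshold in any comparison, the 3 with the smallest p of each of those lists for AAV-hGRβ against AAV-GFP, cell markers not above background in a group, and the 4 genes with the highest correlation with Cbr3 and with Nqo1. Keap1 and the markers Mpeg1, Csf1r, Gzma, Gzmb, Nkg7, Cd3e, Cd8b1, Ncr1, Prf1 and Camp were added after their values were seen. The members and lists were chosen with earlier results of these data known. Alternatives covered background correction, scaling, the filter on dim probes, the probe that stands for a gene, the arrays in the fit, array weights, scan day, slide, the replicate number and each replicate left out.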

Additional observations from a re-analysis of the deposited data

How the results depend on the processing

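In AAV-hGRβ against AAV-GFP, 3 of the 10 NRF2 genes, 2 of the other 46 and 152 of all genes were called. The 3 members were also called with array weights, the mean of a gene's probes, quantile normalization, normexp with bright local backgrounds replaced, the deposited value table, scan day as a block and probes above background on all arrays. In that order of members, other NRF2 genes and all genes, the counts were 1, 1 and 99 under median scaling, 1, 0 and 29 without the filter on dim probes, 1, 0 and 75 with only the 2 groups in the fit, and 1, 0 and 13 under normexp background correction, against 3, 2 and 159 under normexp with bright local backgrounds replaced. On scan day 1 alone they were 0, 0 and 3 and with slide as a fixed block 0, 0 and 0 (1932 genes had an unadjusted p under 0.05 there, by limma), both with fewer samples behind the difference. With slide as a random block 2 members, 1 other NRF2 gene and 73 genes were called. Array weights called 3 members, 7 other NRF2 genes and 2194 genes, and scan day as a block 254 genes. In the weighted fit AAV-GFP replicate 2 had a weight of 6.2, against 0.53 and 0.37 for AAV-GFP replicates 1 and 3. Quantile normalization called 1 of the other NRF2 genes. Leaving out 1 replicate at a time gave 1 to 3 members, 0 to 2 other NRF2 genes and 34 to 166 genes. Where no reason is named, the cause was not tested.

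The samples were not paired by replicate number. Deviations of same-numbered arrays correlated at -0.32 to 0.24, but most of those pairs also differ in scan day, so these values cannot decide on pairing. With the replicate block 0 members, 0 other NRF2 genes and 2 genes were called in this comparison (Cbr3 4.14, adjusted p = 0.0727), and 0, 0 and 1 in AAV-hGRβ against untreated.

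In AAV-hGRβ against untreated, 3 members, 3 other NRF2 genes and 545 genes were called. Array weights gave 7, 18 and 6998, normexp with bright local backgrounds replaced 5, 6 and 934, and slide as a random block 1, 0 and 59. Without the filter on dim probes 0 other NRF2 genes and 84 genes were called, under normexp 0 and 45, on scan day 1 alone 12 and 4757, under median scaling 1 other NRF2 gene, with only the 2 groups 343 genes and with scan day as a block 1212. Leaving out 1 replicate gave 2 to 4 members, 0 to 9 other NRF2 genes and 94 to 1936 genes. In AAV-GFP against untreated, array weights called 3 members, 16 other NRF2 genes and 7417 genes, against 0 as reported. Median scaling called 4 genes there, and quantile normalization, scan day 1 alone, scan day as a block and leaving out untreated replicate 4 called 1 each. Leaving out 1 replicate called 0 to 1 genes.

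Cbr3, Nqo1 and Srxn1 kept their direction in both comparisons with AAV-hGRβ under every alternative run. Signs turned for members that were not called. In AAV-hGRβ against AAV-GFP these were Gclm under normexp (0.14) and, under median scaling, Gsr (-0.10) and Nfe2l2 (-0.013). In AAV-hGRβ against untreated they were Gclm under normexp (0.13) and on scan day 2 (0.024), Gsr under median scaling (-0.14), and G6pdx under median scaling (-0.11), on scan day 1 (-0.020) and without untreated replicate 2 (range over replicates left out -0.0052 to 0.44). In AAV-GFP against untreated, array weights turned Srxn1 (0.18) and Gsr (0.15), and normexp turned Gclm (-0.011), Hmox1 (-0.11) and Txnrd1 (-0.055). Quantile normalization turned Txnrd1 (-0.069), the replicate block Gsr (0.075), scan day 1 Hmox1 (-0.0076), and scan day 2 Gsr (0.064) and G6pdx (0.12). With 1 replicate left out, values in that comparison ran from -0.099 to 0.28 for Gclm, from -0.087 to 0.20 for Hmox1, from -0.0024 to 0.24 for Txnrd1 and from -0.15 to 0.13 for Gsr.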
